A study of Mus musculus with 10 samples.

Results

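The 5 genes that encode the NF-kB subunits (Nfkb1, Nfkb2, Rel, Rela and Relb) and 5 genes that encode inhibitors of the pathway (Nfkbia, Nfkbib, Nfkbie, Nfkbiz and Tnfaip3) were followed in cultured mouse neurons under endoplasmic reticulum (ER) stress. The members were taken by their symbols, and all 10 were found among the 48709 gene rows of the count tables. Gene expression was measured by sequencing polyadenylated RNA from primary hippocampal neurons, which are cells taken from the hippocampus and kept in culture, at 10 days in vitro. Cultures received tunicamycin at 2 ug/mL for 6 h (6 libraries) or its solvent DMSO for the same time (4 libraries). Tunicamycin blocks N-linked glycosylation, so that proteins misfold in the ER. The labels name no strain, genotype or age of the animals. They also do not state whether replicate libraries stem from independent cultures, so every p-value is set against library-to-library spread that could be partly technical.

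NF-kB is a family of dimeric transcription factors that a resting cell holds in the cytoplasm, bound to IkB proteins. Signals from cytokine receptors activate the IkB kinase complex, IkB is phosphorylated and destroyed, and the freed dimers enter the nucleus and switch on genes of inflammation and survival. Several inhibitors are themselves targets of NF-kB, which makes them a feedback loop. In the brain the pathway is known from activated glia and from synaptic signalling in neurons. Its activity is controlled mainly by protein location and decay, neither of which RNA counts measure.

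Library totals lay between 21055289 and 29234887 counts. Hspa5, the main chaperone of the ER lumen, rose from 613 ± 44.6 CPM (counts scaled to a library total of 1000000; SD, n = 4) to 3211 ± 150 CPM (SD, n = 6), and Ddit3, which encodes the stress factor CHOP, rose 7.65-fold. Of 15660 genes tested, 64.3% were called by edgeR (adjusted p under 0.05), 31.8% higher and 32.5% lower with tunicamycin, so a call by itself was common. Neuron markers summed to 7935 to 8547 CPM in the DMSO libraries and to 6742 to 7084 CPM in the tunicamycin libraries, and 9 of 12 were called lower. Astrocyte markers (11 of 11 called lower) summed to 3262 to 3667 CPM and 2233 to 2470 CPM in the same order. Counts came from whole cultures, in which fewer cells of a type and less RNA per cell cannot be told apart.

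Sequence at the start sites of the members is shown first, because NF-kB binds DNA at a short kappa B element and because members of both roles carry it. The RefSeq promoter table (GRCm38.p6) held 7 of the 10 members, without Nfkb1, Relb and Nfkbiz. The 250 bases before each listed start were searched on both strands for the NF-kB consensus. The 7 genes have 10 promoters in the table, since Nfkb2 has 3 listed starts and Tnfaip3 has 2. A match was found in 7 of these 10 promoters (3 of Nfkb2 and 1 each of Rel, Nfkbia, Nfkbie and Tnfaip3) and in 3.90% of all 32851 promoters, and none was found for Rela and Nfkbib. Counted once per gene, at the first start, 5 of the 7 genes had a match. A match is a run of letters and does not show binding. The lines below give 30 bases around a match before the first start of each gene, 5′ to 3′ on the gene's strand, with the match in capitals. In Nfkb2 and Rel the capitals hold overlapping matches on both strands, and Nfkb2 and Tnfaip3 each hold a second, separate match before the same start that is not shown. The Nfkb2 and Tnfaip3 stretches lie inside the GENCODE gene spans given further on, which reach past the RefSeq start used here, and the other three lie upstream of them.
Nfkb2 (chr19:46304688-46304717, plus strand): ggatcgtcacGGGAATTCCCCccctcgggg
Rel (chr11:23771042-23771071, minus strand): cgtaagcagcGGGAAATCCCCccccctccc
Nfkbia (chr12:55492657-55492686, minus strand): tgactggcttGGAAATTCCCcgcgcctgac
Nfkbie (chr17:45555584-45555613, plus strand): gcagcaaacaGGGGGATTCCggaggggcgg
Tnfaip3 (chr10:19015411-19015440, minus strand): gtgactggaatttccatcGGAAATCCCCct
The matches began 39, 92, 29, 106 and 12 bases before the start, in the order shown.

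The whole window of Nfkbia, the gene of the prototype feedback inhibitor IkB alpha, was as follows, with the match in capitals.
Nfkbia (chr12:55492648-55492897, minus strand): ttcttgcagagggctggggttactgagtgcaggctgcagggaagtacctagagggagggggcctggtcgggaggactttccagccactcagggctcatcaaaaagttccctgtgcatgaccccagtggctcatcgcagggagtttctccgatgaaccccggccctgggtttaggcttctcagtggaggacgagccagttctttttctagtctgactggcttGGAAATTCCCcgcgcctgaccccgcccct

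Of the 10 members, 7 rose with tunicamycin, 3 were not called and none was called lower (the background for a higher call is 31.8% of tested genes). The genes that rose were all 5 subunits, Nfkbib and Nfkbiz. The genes that were not called were Nfkbia, Nfkbie and Tnfaip3. All 10 passed the filter on low counts, with at least 74 counts in every library. For the 7 genes that rose, every tunicamycin library lay above every DMSO library, which held for 27% of tested genes, and no member lay wholly below the DMSO libraries (23.9% of tested genes). The median log2 fold change was 0.59 over the 5 subunits, 0.06 over the 5 inhibitors and -0.02 over all tested genes.

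**Figure D1:**
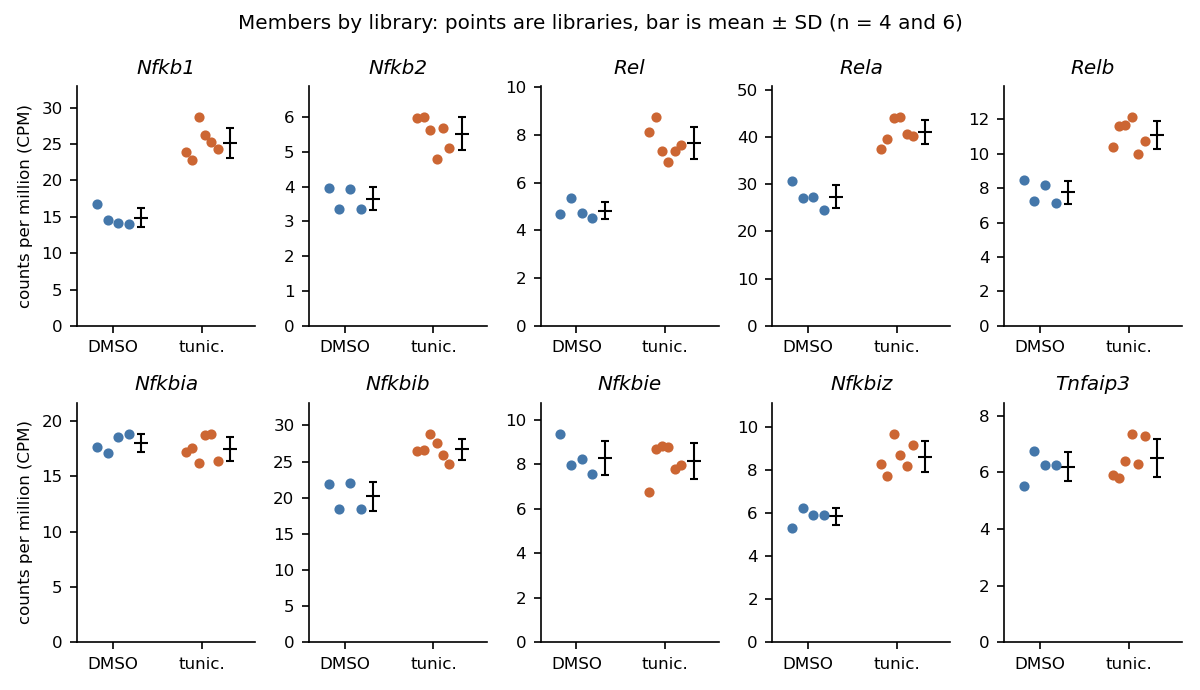
Level of each of the 10 members in CPM (vertical axis, from 0) in the DMSO and tunicamycin libraries; each point is 1 library and the bar is the mean ± SD (n = 4 and n = 6). The groups do not overlap for the 5 subunits, Nfkbib and Nfkbiz, and they overlap for Nfkbia, Nfkbie and Tnfaip3.

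The subunits with a transactivation domain are Rela, Rel and Relb. Rela (ENSMUSG00000024927, chromosome 19, 5637483 to 5648130, GRCm38) encodes p65, the activating partner of the common NF-kB dimer. It stood at 30.7, 27.1, 27.3 and 24.5 CPM in the 4 DMSO libraries, and at 37.5 to 44.2 CPM (median 40.4) in the 6 tunicamycin libraries. The lowest tunicamycin library was thus above the highest DMSO library. Rela rose 1.49-fold (log2 0.57 ± 0.05, SE, edgeR adjusted p = 7.15e-09).

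Rel (ENSMUSG00000020275, chromosome 11, 23736847 to 23770970) encodes c-Rel, best known from lymphocytes. Its DMSO libraries held 4.68, 5.36, 4.75 and 4.53 CPM, and its tunicamycin libraries 6.89 to 8.75 CPM (median 7.46), with no overlap. It rose 1.57-fold (log2 0.65 ± 0.09, edgeR adjusted p = 1.08e-06).

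Relb (ENSMUSG00000002983, chromosome 7, 19606217 to 19629438) encodes the activating subunit of the non-canonical pathway. It was at 8.50, 7.25, 8.17 and 7.12 CPM with DMSO and at 9.98 to 12.1 CPM (median 11.2) with tunicamycin. The groups stood apart, and the rise was 1.42-fold (log2 0.51 ± 0.08, edgeR adjusted p = 4.57e-06), the smallest among the subunits.

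Nfkb1 and Nfkb2 encode precursors whose carboxyl-terminal parts act as IkB proteins and whose amino-terminal parts are DNA-binding subunits. Nfkb1 (ENSMUSG00000028163, chromosome 3, 135584655 to 135691547) encodes p105, the source of p50. Its DMSO libraries held 16.7, 14.6, 14.1 and 14.0 CPM, and its tunicamycin libraries 22.7 to 28.7 CPM (median 24.7). The lowest tunicamycin library was above the highest DMSO library. Nfkb1 rose 1.68-fold, the largest fold of the 10 members (log2 0.75 ± 0.07, edgeR adjusted p = 1.33e-09).

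Nfkb2 (ENSMUSG00000025225, chromosome 19, 46304320 to 46312385) encodes p100, the source of p52 and the inhibitor of Relb dimers. It stood at 3.95, 3.36, 3.92 and 3.35 CPM with DMSO and at 4.80 to 5.99 CPM (median 5.64) with tunicamycin. All 6 tunicamycin libraries were above the 4 DMSO libraries, and the rise was 1.51-fold (log2 0.59 ± 0.10, edgeR adjusted p = 1.57e-05). The labels give no sequencing lane, so lanes were inferred, as stated in the closing section. Fitted in sequencing lane 2 alone, with 1 DMSO library, the log2 fold change of Nfkb2 was 0.40 and not called. Other genes share 18.1% of its exonic bases, among them Psd on the opposite strand, and the kit did not mark strand. Psd was at 413 ± 25.8 CPM with DMSO and fell (log2 -0.22), so the counts of Nfkb2 are uncertain.

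Among the inhibitors, Nfkbib and Nfkbiz rose. Nfkbib (ENSMUSG00000030595, chromosome 7, 28758251 to 28767512) encodes IkB beta, a cytoplasmic inhibitor of Rela and Rel dimers. It was at 21.9, 18.5, 22.0 and 18.4 CPM with DMSO and at 24.7 to 28.9 CPM (median 26.6) with tunicamycin, without overlap. It rose 1.31-fold (log2 0.39 ± 0.06, edgeR adjusted p = 4.96e-06), the smallest of the called rises. Its exons overlap other genes in 16.4% of their bases, among them Sirt2 on the opposite strand, which fell (log2 -0.18) from 87.1 ± 2.59 CPM, so its counts are uncertain too.

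Nfkbiz (ENSMUSG00000035356, chromosome 16, 55811375 to 55838899) encodes IkB zeta, an atypical member that works in the nucleus with p50 and can activate as well as repress. Its DMSO libraries held 5.33, 6.25, 5.91 and 5.94 CPM, and its tunicamycin libraries 7.72 to 9.69 CPM (median 8.50). The groups stood apart, with a rise of 1.46-fold (log2 0.55 ± 0.08, edgeR adjusted p = 4.78e-06).

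The other three inhibitors showed no called difference. Nfkbia (ENSMUSG00000021025, chromosome 12, 55489410 to 55492647) stood at 17.7, 17.1, 18.5 and 18.9 CPM with DMSO and at 16.2 to 18.9 CPM (median 17.4) with tunicamycin. The groups overlapped almost fully (log2 -0.05 ± 0.06, edgeR adjusted p = 0.438). Its 95% interval ran from 0.886-fold to 1.05-fold. Under upper-quartile scaling Nfkbia was called lower (log2 -0.17, edgeR adjusted p = 0.0150), but that scaling moved the median of all genes by -0.11, and relative to the median Nfkbia was at -0.04 under TMM and under upper-quartile scaling.

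Nfkbie (ENSMUSG00000023947, chromosome 17, 45555703 to 45563169) encodes IkB epsilon, a further cytoplasmic inhibitor. It was at 9.37, 7.95, 8.21 and 7.57 CPM with DMSO and at 6.75 to 8.82 CPM (median 8.32) with tunicamycin. The groups overlapped (log2 -0.03 ± 0.08, edgeR adjusted p = 0.738), and the 95% interval ran from 0.866-fold to 1.10-fold. Its small difference took the opposite sign without DMSO replicate 1 (log2 0.026) and in lane 2 alone (0.080).

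Tnfaip3 (ENSMUSG00000019850, chromosome 10, 19000910 to 19015657) encodes A20, a ubiquitin-editing enzyme that shuts off signalling upstream of the IkB kinases. It stood at 5.51, 6.77, 6.27 and 6.26 CPM with DMSO and at 5.79 to 7.36 CPM (median 6.35) with tunicamycin. The ranges overlapped (log2 0.06 ± 0.09, edgeR adjusted p = 0.595), with a 95% interval from 0.914-fold to 1.19-fold. Its sign also turned under upper-quartile scaling (-0.057). The upper limits of these 3 intervals all lay below the lower limit for Nfkbib, 1.21-fold.

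**Figure D2:**
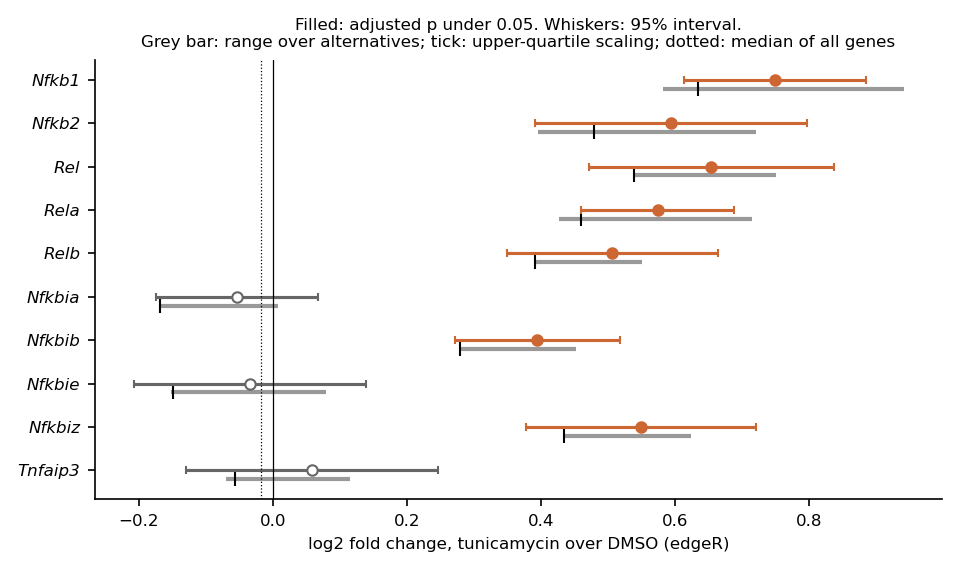
Log2 fold change of each member (horizontal axis) with its 95% interval; filled points passed edgeR at an adjusted p under 0.05, grey bars span the alternative settings, the tick is upper-quartile scaling and the dotted line is the median of all genes (-0.02). The intervals of 7 members lie above 0, and those of Nfkbia, Nfkbie and Tnfaip3 cross it.

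In the authors' deposited table of upregulated genes the same 7 members are listed, and the other three are in neither the upregulated nor the downregulated table. The authors' deposited table gives log2 fold changes of 0.74 for Nfkb1, 0.57 for Rela and 0.39 for Nfkbib.

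Whether members moved by unequal amounts was tested with the ratio of each gene's counts to those of Rela in the same library, which does not depend on the scaling between libraries. All 9 ratios share Rela as the denominator, so they are not independent of each other or of its rise. With all 10 libraries, 5 of the 9 ratios passed a two-sided exact permutation test (p as the doubled smaller tail over 210 arrangements, adjusted over the 9 ratios). Leaving out any 1 of the 4 DMSO libraries left none of the 9 called (lowest adjusted p = 0.0536), and leaving out 1 tunicamycin library left 3 or 4. With 3 DMSO libraries the smallest p of this test is 0.0238, and 4 ratios at that smallest p alone have an adjusted p of 0.0536, so these runs say little about stability.

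Nfkbia counts were 0.664 ± 0.0817 of Rela counts with DMSO (SD, n = 4) and 0.427 ± 0.0359 with tunicamycin (SD, n = 6). That ratio was lower in all 6 tunicamycin libraries than in any DMSO library, by -0.63 on the log2 scale (exact permutation p = 0.00952, the smallest this test gives; adjusted p = 0.0286). Without 1 library it ranged from -0.70 to -0.56.

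The ratio of Nfkbie to Rela went from 0.302 ± 0.00684 to 0.198 ± 0.0126, a log2 difference of -0.61 with no overlap (exact permutation p = 0.00952, adjusted p = 0.0286), and from -0.64 to -0.59 without 1 library. That of Tnfaip3 went from 0.229 ± 0.0343 to 0.159 ± 0.0137 (log2 -0.52, exact permutation p = 0.0190, adjusted p = 0.0343), and 5 of 6 tunicamycin libraries were below the lowest DMSO library. That of Nfkbib moved less, from 0.739 ± 0.0537 to 0.651 ± 0.0333 (log2 -0.18, exact permutation p = 0.0190, adjusted p = 0.0343), again with 5 of 6 below. Neither Tnfaip3 nor Nfkbib was called without tunicamycin replicate 2, 3 or 4 (exact permutation adjusted p = 0.0571 for both). Nfkb1, Nfkbia and Nfkbie stayed called in these runs (exact permutation adjusted p = 0.0476). Without 1 library the log2 difference ran from -0.63 to -0.46 for Tnfaip3 and from -0.22 to -0.14 for Nfkbib.

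Nfkb1 was the one gene whose ratio to Rela was called higher, from 0.543 ± 0.0221 to 0.613 ± 0.0283, with 6 of 6 tunicamycin libraries above the DMSO libraries (log2 0.17, exact permutation p = 0.00952, adjusted p = 0.0286). The ratios of Nfkb2 (log2 0.01), Rel (0.08), Relb (-0.07) and Nfkbiz (-0.03) were not called, with exact permutation adjusted p of 0.905, 0.673, 0.314 and 0.905. Within sequencing lanes 1, 2 and 3 the log2 difference was -0.42, -0.79 and -0.82 for Nfkbia, and -0.59, -0.60 and -0.66 for Nfkbie. It was -0.48, -0.56 and -0.61 for Tnfaip3. For Nfkbib it was -0.02, -0.34 and -0.26, and for Nfkb1 0.16, 0.26 and 0.10. Among the ratios that were not called it was 0.29, -0.29 and -0.04 for Nfkb2, and 0.33, -0.12 and -0.0036 for Rel. It was 0.07, -0.15 and -0.18 for Relb, and 0.05, -0.06 and -0.18 for Nfkbiz, so these 4 had no steady sign across lanes.

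**Figure D3:**
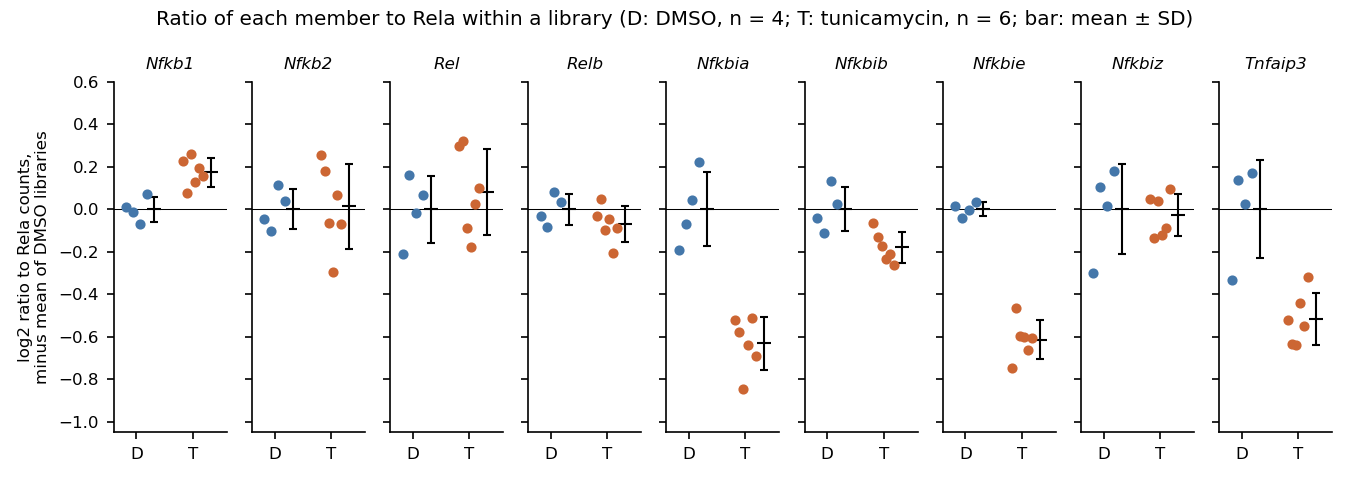
Log2 ratio of each member's counts to Rela counts in the same library, minus the mean of the DMSO libraries (vertical axis); points are libraries (D, DMSO, n = 4; T, tunicamycin, n = 6) and bars are the mean ± SD. Nfkbia and Nfkbie lie below their DMSO libraries in all 6 tunicamycin libraries, and Nfkb1 lies above.

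Levels can be compared between genes only per length, here as CPM per kb of exonic sequence. The length used was that of all annotated exons, 3072 bases for Rela and 12061 for Nfkb1. Which transcripts the cultures used was not measured, so orders and shares between genes depend on that length. The counts of Nfkbib and Nfkb2 are also uncertain, for the overlaps with other genes given above. With DMSO, Nfkbia was highest at 11.2 ± 0.503 CPM per kb (SD, n = 4), above Nfkbib at 9.32 ± 0.939 and Rela at 8.92 ± 0.818, which overlapped each other. Nfkbie (2.72 ± 0.254), Relb (2.00 ± 0.175) and Nfkb1 (1.23 ± 0.106) followed. Nfkb1 overlapped Nfkbiz (1.17 ± 0.0760), and Tnfaip3 (0.858 ± 0.0719) overlapped Nfkb2 (0.795 ± 0.0723). Rel was lowest at 0.647 ± 0.0488.

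With tunicamycin the order of the top means was reversed. Nfkbib and Rela had no settled order with DMSO, where Nfkbib was above Rela in 3 of 4 libraries. Rela stood at 13.4 ± 0.854 CPM per kb (SD, n = 6), Nfkbib at 12.3 ± 0.662 and Nfkbia at 10.9 ± 0.690. Rela was above Nfkbib, and Nfkbib above Nfkbia, within each of the 6 libraries, although the ranges of neighbours overlapped between libraries. Tnfaip3 became the lowest by mean (0.901 ± 0.0931), but it overlapped Rel (1.03 ± 0.0896), which was above it in 5 of 6 libraries. The summed level of the 5 subunits was 13.6 ± 1.12 CPM per kb with DMSO and 20.5 ± 1.04 with tunicamycin. By these lengths Rela made up 65.6 ± 0.751% and 65.1 ± 1.21% of it. Not scaled by length, mean CPM with DMSO was 27.4 for Rela and 14.9 for Nfkb1.

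**Figure D4:**
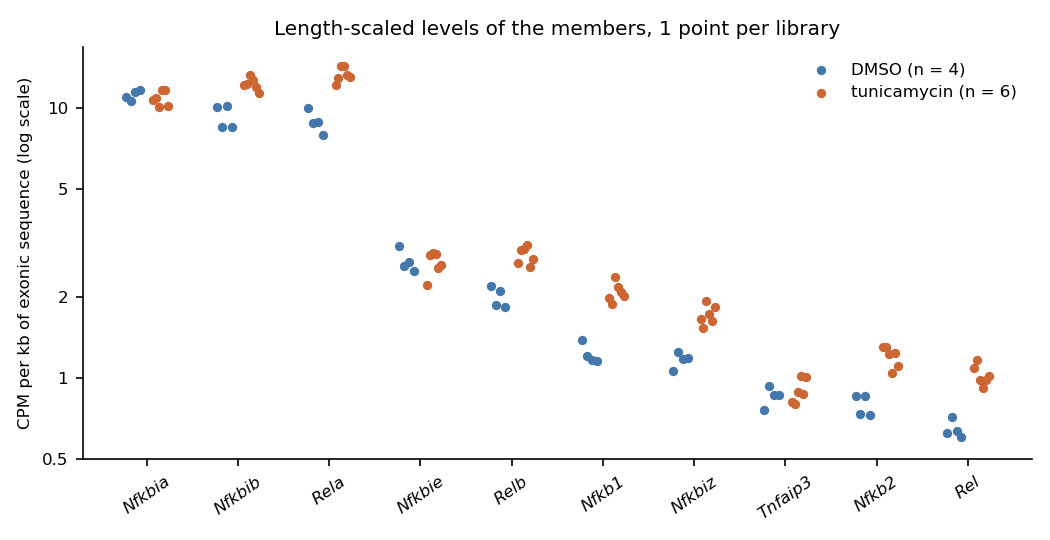
Level of each member in CPM per kb of exonic sequence (vertical axis, log scale), 1 point per library (DMSO, n = 4; tunicamycin, n = 6), ordered by the DMSO mean. Nfkbia is highest with DMSO (11.2) and Rela with tunicamycin (13.4).

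The genes upstream of NF-kB were read from lists of the pathway. The lists here and below were chosen with earlier results of these data known, so their counts only describe. Over all tested genes 31.8% were called higher and 32.5% lower, and the counts in each list stand beside these shares. Among 11 IkB kinase and upstream kinase genes, 5 were called higher and 2 lower (median log2 0.07). Chuk, the catalytic subunit IKK alpha, rose from 47.1 ± 3.07 to 79.7 ± 1.96 CPM (log2 0.75 ± 0.04, edgeR adjusted p = 4.51e-13). Ikbkb, the other catalytic subunit IKK beta, was not called (log2 0.01, 95% interval -0.06 to 0.08), and the regulatory subunit Ikbkg fell by 0.13 on the log2 scale with overlapping groups. Tab3 (log2 0.86) and Tab2 (0.50), which tie ubiquitin chains to the TAK1 kinase, rose. Map3k8, a kinase that p105 binds, fell at a low level, from 0.691 ± 0.202 to 0.276 ± 0.0518 CPM (log2 -1.34).

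Of 19 tested adaptors and ubiquitin ligases, 13 rose and 3 fell (31.8% and 32.5% over all tested genes), with a median of 0.27. Birc2, the ligase cIAP1, rose from 34.8 ± 2.10 to 64.3 ± 3.59 CPM, and Ticam1, the adaptor TRIF of Toll-like receptors, rose 2.54-fold. Bcl10, an adaptor of the CARD signalling complex, rose as well (log2 0.67). Traf3 (-0.21), Tradd (-0.78) and Traf1 (-1.04) fell, and the groups overlapped for Traf1. Traf3 is a restraint of the non-canonical pathway, and Tradd is an adaptor of the TNF receptor.

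Of 15 tested genes of other inhibitors and atypical IkB proteins, 8 rose and 1 fell, with a median of 0.29. The shares over all tested genes were 31.8% and 32.5%. N4bp1 rose from 63.9 ± 2.59 to 110 ± 2.21 CPM (log2 0.77), Nfkbil1 rose 2.42-fold, and Tax1bp1, a partner of A20, rose by less (log2 0.31). Nfkbil1 overlaps other genes in 16.4% of its exonic bases. Tnip1, another A20 partner, fell (-0.20). Bcl3, an atypical IkB protein, had 0 to 2 counts per library and was not tested.

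Of 12 tested receptors 5 rose and 3 fell (median 0.33), where 31.8% of all tested genes were called higher and 32.5% lower. Tnfrsf12a, the receptor of TWEAK, rose from 18.3 ± 1.17 to 46.4 ± 3.81 CPM (log2 1.33 ± 0.06), and Il1rap, the accessory chain of the IL-1 receptor, rose as well (log2 0.59). Tnfrsf21 (-0.39), Tlr3 (-1.09) and Tnfrsf11a (-0.56) fell, the last with overlapping groups. Ligands were scarce. Only 4 of 10 were tested, and Lta alone was called, from 0.521 ± 0.0768 to 0.912 ± 0.219 CPM. Tnf had 0 to 3 counts per library.

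Known targets of NF-kB moved in both directions. Of 12 tested cytokine, chemokine and adhesion targets (8 of the 20 listed did not pass the filter), 6 rose and 1 fell. Over all tested genes 31.8% were called higher and 32.5% lower. The median of these targets was 0.52. Ptgs2, the prostaglandin synthase COX-2, rose from 13.8 ± 1.28 to 37.3 ± 3.73 CPM (log2 1.43), and the chemokine Cxcl1 rose from 0.272 ± 0.0984 to 1.73 ± 0.290 CPM (log2 2.62). The level of Cxcl1 was low, with 3 to 57 counts per library. Irf1, an interferon regulatory factor, fell from 4.89 ± 0.540 to 2.53 ± 0.193 CPM (-0.97). Il6 had 0 to 4 counts per library and was not tested.

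Of 14 survival and stress targets, 7 rose and 6 fell (31.8% and 32.5% over all tested genes), with a median of 0.02. Myc, a transcription factor of growth, rose 2.71-fold, Cflar, an inhibitor of caspase-8, rose 2.30-fold, and Junb, an AP-1 subunit, rose 2.34-fold. The 6 that fell include 2 genes chosen after their values were seen. These are Sod2, the mitochondrial superoxide dismutase (log2 -0.39), and Bcl2l1, which encodes Bcl-xL (log2 -0.27). Many of these genes also respond to other factors.

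**Figure D5:**
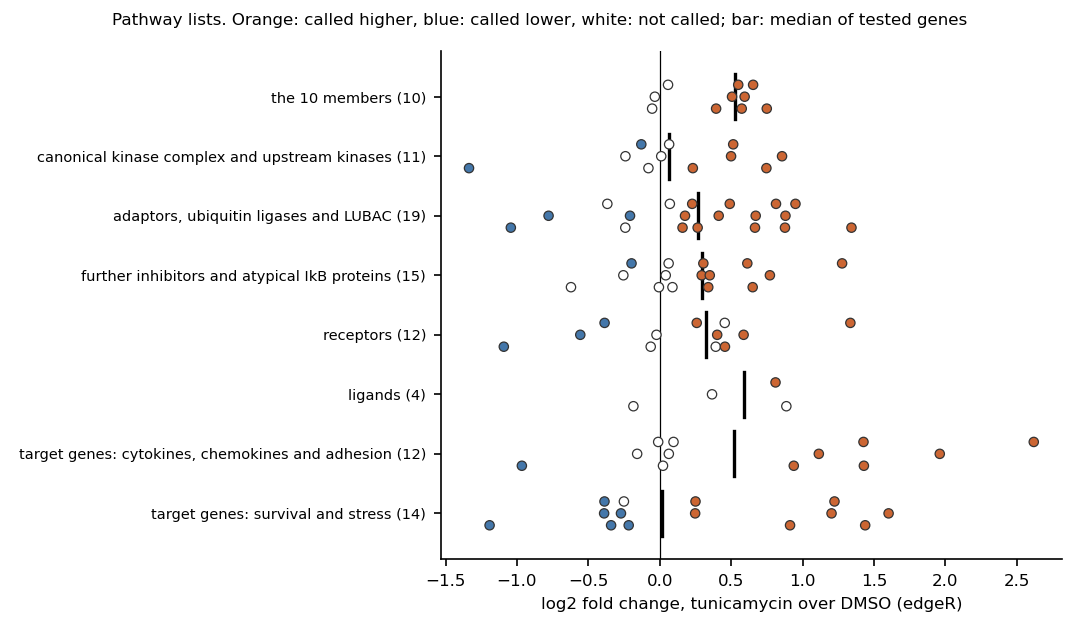
Log2 fold change (horizontal axis) of the 10 members and of the tested genes of 7 pathway lists, 1 point per gene (orange, called higher; blue, called lower; white, not called), with the median of each list as a bar. The medians range from 0.02 for survival targets to 0.59 for the 4 tested ligands, of which only Lta was called.

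Glia also express NF-kB genes, and their markers moved the other way. Of 12 microglia markers 9 were tested, 7 fell and none rose (32.5% of all tested genes were called lower). None was at 0 in every library. They summed to 18.3 to 22.8 CPM with DMSO and to 12.7 to 15.8 CPM with tunicamycin. Endothelial markers summed to 35.9 to 75.4 CPM and 53.0 to 79.2 CPM, nearly all of it from Kdr (means 50.6 and 58.4 CPM). The next highest was Flt1 (0.688 and 1.62 CPM). Of the 7 endothelial markers 4 were tested, and Flt1 alone was called, higher (31.8% over all tested genes). Fibroblast and mural markers summed to 142 to 271 CPM and 115 to 204 CPM. The part of these cells in the members' levels was not tested.

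The genes most like each member over the 10 libraries were sought among 13782 tested genes with a symbol, by Pearson's r of log2 CPM. They were Lman2 for Nfkb1 (r = 0.995), Pofut2 for Rela (0.999), Mid2 for Rel (0.993), Bmp2 for Nfkb2 (0.992) and Grpel1 for Relb (0.988). For Nfkbib it was Adprhl2 (0.986), and for Nfkbiz it was Ptpn11 (0.986). For the genes without a called difference the closest were Nupr1l for Nfkbia (0.934), Zfp428 for Nfkbie (0.920) and Acr for Tnfaip3 (0.864). The second closest genes were Cfap43, Telo2, Abhd10, Adrb1, Lsp1, Poldip3, Wars2, Wdr49, Ostf1 and Iqsec3, in the same order of members. The libraries of a group share their treatment, and the best of many genes is high by selection, so these values only describe.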

How the data were processed

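For each library the authors deposited raw counts per Ensembl gene, without normalization. Per the submitters' processing notes, the tools were DESeq2, featureCounts (Subread 1.5.1), STAR 2.5.2b and FastQC 0.11.5, and the build was mm10. Tool roles, annotation and strand setting were not given in the sources used here. Per the labels' protocols, libraries were TruSeq v2 single-end reads of 50 bp. The authors also deposited tables of called genes with a log2 fold change, an adjusted p-value and a normalized signal per library, and 100% of these signals matched the deposited counts after division by a library-specific factor (relative tolerance 1e-04).

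Names and positions came from GENCODE M21 (GRCm38, the assembly of mm10), which matched 48349 of 48709 rows; the 360 others held 0.0462% of counts. Members and lists were chosen with earlier results of these data known. All 10 libraries were fitted with edgeR 4.0.16 in R 4.3.3 (quasi-likelihood, robust, TMM, filterByExpr, two-sided test), with Benjamini-Hochberg adjustment over the 15660 genes tested and a threshold of 0.05. The code was tested on simulated data. CPM are counts scaled to each library's total, given as mean ± SD. The ratio test was run first with p as the doubled smaller tail, which is the form reported. A second form, on the absolute difference of means, was tried after those results were seen and kept more calls when a library was left out; the closing section gives both. Named genes were the members, the 3 called genes of each list with the smallest p, those against its larger direction (where 3 or fewer), Hspa5 and Ddit3, and the 2 genes most like each member. Genes named to show a low count, and Ikbkb, Psd and Sirt2, were added after values were seen. No library repeated another (chi-square per degree of freedom of 2.17 or more within groups).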

Additional observations from a re-analysis of the deposited data

How the results depend on the processing

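The count of 7 members called higher was the same under 20 of 21 alternatives of the edgeR fit, among them DESeq2, other scalings and filters, each library left out and a lane term, and it was 6 in lane 2 alone. The count called lower, 0 as reported, was 1 under upper-quartile scaling (Nfkbia), where 3632 genes were called higher and 6934 lower, against 4983 and 5082. Among fold changes, signs reversed for Nfkbia in lane 1 (0.0074), for Nfkbie in lanes 2 and 3 (0.080, 0.051) and between -0.064 and 0.026 without 1 library, and for Tnfaip3 under upper-quartile scaling (-0.057) and in lane 1 (-0.070); none of these was called. The ratio to Rela of Nfkb2 (-0.036 to 0.074 without 1 library, with -0.0038 and -0.022 without DMSO replicates 1 and 2 and -0.021 without tunicamycin replicate 2) and of Nfkbiz (-0.13 to 0.031, with 0.0066 without DMSO replicate 2) also changed sign, under both forms of the test. Within lanes the ratios that were not called ranged more widely: from -0.29 to 0.29 for Nfkb2, from -0.12 to 0.33 for Rel, from -0.18 to 0.066 for Relb and from -0.18 to 0.052 for Nfkbiz.

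With p as the doubled smaller tail, 5 ratios were called with all libraries and 0 to 4 when each library was left out, with none called in 4 of these 10 runs. On the absolute difference of means, a form tried after those results were seen, the same 5 were called, and 0 to 5 when each library was left out, with none called in 1 of the 10 runs (without DMSO replicate 3). With 3 DMSO libraries there are 84 arrangements, and the smallest p is 0.0238 for the doubled tail and 0.0119 for the other form. Of the 9 ratios, 4 at the first p alone, or 2 at the second, have an adjusted p of 0.0536 and are not called. On the absolute difference of means, leaving out DMSO replicate 1, 2 or 4 kept all 5 calls. The smallest p is the same in those runs, so it did not by itself force the loss without DMSO replicate 3.

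Same-numbered libraries did not deviate together (r from -0.217 to 0.00852), so the numbers were not taken as pairs. With the replicate block on the 8 libraries numbered 1 to 4, edgeR called 4416 genes higher, 4398 lower and 7 members higher, against 4699, 4758 and 7 without it, a fit added after the data were seen. Lane was read from file names, and lanes 2 and 3 held 1 DMSO library each, assumed to vary like the other group. Low counts kept Tnf, Il6 and Bcl3 from being tested.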
